A study of Mus musculus with 2 samples.

Results

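The contractile-high basal cells described here were the 25% of the basal mammary epithelial cells of each library in which transcripts of 8 smooth muscle contractile genes made up the largest share of a cell's RNA molecules, counted by unique molecular identifiers (UMIs). They numbered 2393 of 9574 eligible basal cells, 1001 of 4006 in the Ehf_KO library and 1392 of 5568 in the WT library, and came from 15772 cells kept among 18533 deposited barcodes. A cell was eligible when it held at least 1000 UMIs, at least 500 genes and at most 20% mitochondrial UMIs. It also had to carry at least 5 UMIs of the basal genes Krt14, Krt5, Krt17, Acta2, Myh11 and Mylk, and more of these than of the luminal genes Krt8, Krt18, Krt7, Krt19, Cldn3 and Cldn4. Cells with 3 or more UMIs of 8 cell cycle genes, or with 2 or more of Igfbp3, were set aside. Cells were then ranked within their library by the summed share of Acta2, Tagln, Cnn1, Myh11, Mylk, Myl9, Tpm2 and Actg2. These genes, and the contrast between these cells and the other basal cells, are therefore given as a description, without any claim that a difference between the rank groups is a finding. For levels along the ranking, the basal cells of a library were cut into 4 equal rank groups, of which the top one is the contractile-high cells.

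Myoepithelial cells form the basal layer of the mammary ducts and alveoli. They carry a smooth muscle type of actin and myosin apparatus next to the keratins of a stratified epithelium, and they contract when oxytocin from the pituitary binds its receptor, which raises calcium in the cell and activates myosin light chain kinase to press milk out of the alveoli. Many smooth muscle genes are driven by serum response factor (SRF) and its partners, which bind a short DNA element called the CArG box. Ehf is an epithelial transcription factor of the ETS family.

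The glands came from adult mice at 18.5 days of pregnancy of the strains labelled EhfKO and WT. Live cells negative for Ter119, CD31 and CD45, surface proteins of erythroid, endothelial and blood cells, were sorted as mammary epithelial cells and counted with 10x Chromium 3' V3 chemistry, and the labels do not say which part of Ehf is deleted. Each genotype was 1 library made from the pooled glands of 2 females, so animals cannot be told apart, no test across samples was possible and all intervals below are 95% intervals of counting error only. A difference of at least 1.5-fold, in either direction, was used as a rule of size.

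The Ehf_KO library was the deeper of the pair per barcode and the smaller in all, with a median of 3707 UMIs over 7275 barcodes and 40066795 UMIs, against 2163.5 UMIs over 11258 barcodes and 48720938 UMIs in the WT library. Among contractile-high cells the median was 3785 UMIs and 1599 genes in Ehf_KO and 2191.5 UMIs and 1083.5 genes in WT. The libraries shared 25 barcodes, none of which was a contractile-high cell. Ehf itself was near the detection limit here, with 10 UMIs over all Ehf_KO and 35 over all WT contractile-high cells (2.47 and 10.4 CPM, counts in each 1000000 UMIs of a cell set), while luminal cells of the same libraries held 75.9 and 115 CPM. The log2 ratio of Ehf_KO over WT was -2.09 (-3.27 to -1.05) in contractile-high and -2.02 (-2.44 to -1.61) in other basal cells, with 95% intervals of counting error. The ratio of contractile-high over other basal cells was -1.08 in Ehf_KO and -1.02 in WT. Ehf UMIs thus remained in the Ehf_KO library, and a 3' tag outside the deleted part would not check the genotype.

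Promoters of some ranking genes and of genes that accompanied them are shown first. They were picked because they hold a match to the element through which smooth muscle genes are commonly driven. The stretches below are read 5' to 3' on the gene's own strand from RefSeq windows of assembly GRCm38.p6, with the CArG box in capitals. The 2 stretches of Acta2, the smooth muscle actin that leads the ranking score, each hold a box that is 1 letter off the core; they lie on the minus strand at chr19:34255423-34255482 and chr19:34255374-34255432 and begin the box 84 and 34 bases before the start site.
Acta2 distal: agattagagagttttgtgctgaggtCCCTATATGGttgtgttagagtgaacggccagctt
Acta2 proximal: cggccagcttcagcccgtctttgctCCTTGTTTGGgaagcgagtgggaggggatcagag
A complete box stood 161 bases before the start site of Myl9, the regulatory myosin light chain that the kinase phosphorylates, at chr2:156775278-156775337 on the plus strand.
Myl9: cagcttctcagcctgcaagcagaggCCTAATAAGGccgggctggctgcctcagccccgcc
Genes outside the ranking score with a complete box included Myl6, the essential myosin light chain, at chr10:128493025-128493084 (minus strand), and Vcl, which encodes the adhesion protein vinculin, at chr14:20929148-20929205 (plus strand).
Myl6: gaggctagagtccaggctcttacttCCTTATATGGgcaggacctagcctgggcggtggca
Vcl: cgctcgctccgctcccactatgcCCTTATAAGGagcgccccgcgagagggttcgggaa
Fhl2, a LIM domain cofactor, held a complete box in front of each of 2 start sites, at chr1:43196823-43196882 and chr1:43163962-43164017 on the minus strand.
Fhl2 upstream start: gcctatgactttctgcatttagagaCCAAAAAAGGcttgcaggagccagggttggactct
Fhl2 downstream start: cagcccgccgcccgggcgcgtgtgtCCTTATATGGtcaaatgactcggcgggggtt

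A complete CArG box on either strand lay within 250 bases before to 50 bases after the start site of 12 of the 212 genes (5.66%) that were at least 1.5-fold higher in contractile-high cells in both libraries and had such a window. The box was found in 0 of the 175 genes that were lower in both, in 135 of 7861 tested genes (1.72%) and in 488 of all 27025 genes with a window (1.81%). The 12 genes were Acta1, Asb2, Dmd, Fbxl22, Fhl2, Filip1, Inafm2, Itgb6, Myadm, Myl6, Prune2 and Vcl. Boxes complete or 1 core letter off were present for 43 of the higher genes (20.3%), for 15 of the lower genes (8.57%) and for 843 of the tested genes (10.7%). The MCAT element (CATTCC, or GGAATG on the other strand), which TEAD factors bind, was present for 36 (17.0%), 27 (15.4%) and 1109 (14.1%) of the same sets. Of the 8 ranking genes 5 had a window, not Tagln, Myh11 and Actg2. Among these 5, a complete box was found for 1 and a box complete or 1 core letter off for 2. A match is a description of these letters only, and the genes had been chosen by their values.

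The contractile genes took a large part of the RNA of these cells. Summed over the 8 ranking genes, contractile-high cells held 56067 CPM in Ehf_KO, against 25622 CPM in the other Ehf_KO basal cells. In WT the sums were 65114 CPM in contractile-high and 32507 CPM in the other basal cells. The median cell share was 5.33% in Ehf_KO and 6.30% in WT contractile-high cells, and 2.56% and 3.63% in the other basal cells of the same libraries. The highest cell reached 9.69% in Ehf_KO and 11.2% in WT.

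The share ran over a continuous range, so that the class is a part of that range and not a separate kind of cell. In Ehf_KO the lowest contractile-high cell and the highest cell left out both stood at 4.36%, and in WT both stood at 5.45%. Within 10% of the cut lay 524 Ehf_KO cells (13.1% of the eligible), of which 255 were contractile-high, and 1070 WT cells (19.2%), of which 489 were. The cut also differed between the libraries. Only 459 Ehf_KO basal cells (11.5%) stood above the WT cut, whereas 2610 WT basal cells (46.9%) stood above the Ehf_KO cut. With every cell thinned to 1000 UMIs, 494 Ehf_KO cells (12.3%) reached the WT cut of 5.5%, and the median share of all eligible cells was 3.1% in Ehf_KO and 4.2% in WT. Of the top 25% ranked after thinning, 87.8% in Ehf_KO and 85.8% in WT were also contractile-high by all their UMIs.

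**Figure D1:**
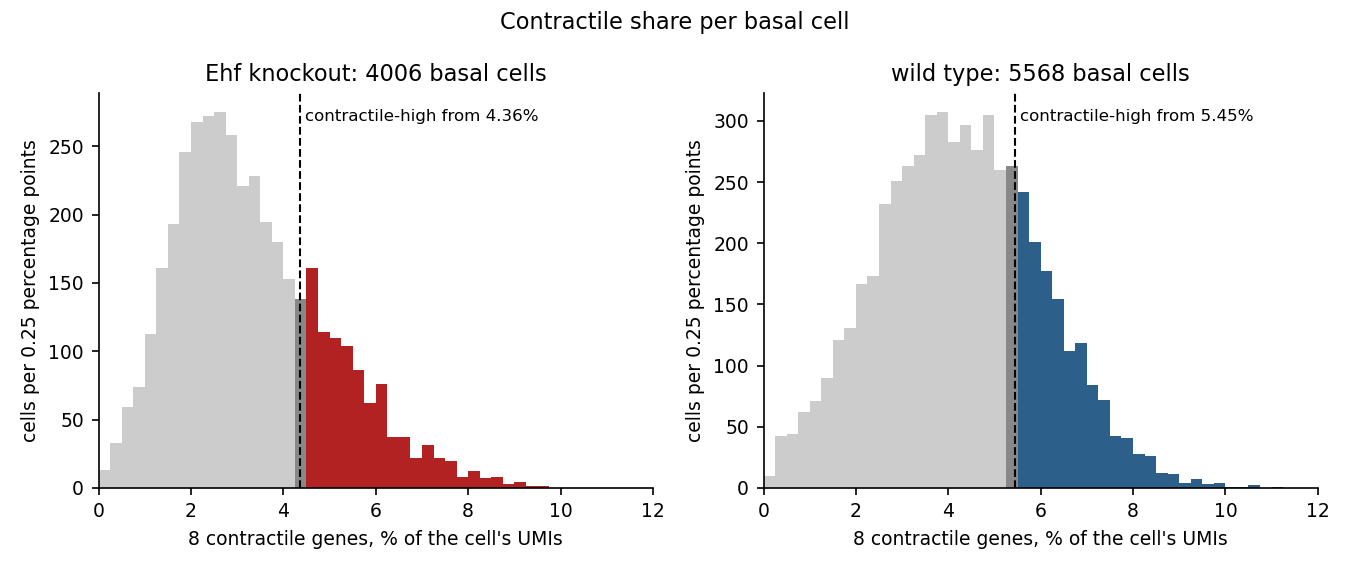
Number of eligible basal cells (vertical axis) by the percent of a cell's UMIs that came from the 8 contractile genes (horizontal axis), for Ehf_KO on the left and WT on the right; the dashed line marks the cut, coloured bars hold contractile-high cells, light grey bars other basal cells and the dark grey bar the bin that contains the cut. The cut lies at 4.36% in Ehf_KO and 5.45% in WT, on the slope of a single continuous distribution in each library.

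Each ranking gene was higher in contractile-high cells, as the ranking makes them, and they differed little in how far. Acta2 (chr19:34241090-34255590, minus strand, GRCm38) had 26519 CPM in contractile-high and 11669.6 in other basal cells of the Ehf_KO library, and 29886 and 14267 in those of the WT library. Its log2 ratio of contractile-high over other basal cells was 1.23 in Ehf_KO and 1.07 in WT. Tpm2, a tropomyosin that lies along actin filaments, had 5839 CPM in contractile-high and 2415 in other basal cells of the Ehf_KO library, and 6501 and 3131 in those of the WT library, with log2 ratios of 1.32 in Ehf_KO and 1.06 in WT. Across the 8 genes the ratio ran from 0.96 for Myl9 to 1.32 for Tpm2 in Ehf_KO, and from 0.84 for Myh11 to 1.18 for Actg2 in WT. Myh11 (chr16:14194535-14291372, minus strand), the smooth muscle myosin heavy chain, had 3721 CPM in contractile-high and 1904 in other basal cells of the Ehf_KO library, and 5247 and 2932 in those of the WT library. Tagln (chr9:45929619-45936058, minus strand), an actin-binding protein of smooth muscle, had 9172 CPM in contractile-high and 4286 in other basal cells of the Ehf_KO library, and 10598 and 5286 in those of the WT library. Cnn1 (chr9:22099216-22109630, plus strand), the smooth muscle calponin, had 2877 CPM in contractile-high and 1379 in other basal cells of the Ehf_KO library, and 3252 and 1759.9 in those of the WT library. Nearly every contractile-high cell carried these genes. Acta2 and Tagln UMIs were present in 100% of the cells of both libraries, Cnn1 in 99.9% of Ehf_KO and 99.5% of WT cells and Myh11 in 99.7% and 99.9%.

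The basal keratins Krt14, Krt5 and Krt17 were part of the rule, so their presence describes the cells and is no check of them. A UMI of Krt14, Krt5 or Krt17 was present in 996 Ehf_KO (99.5%) and 1380 WT (99.1%) contractile-high cells, with a median of 13 and 7 such UMIs per cell. Fewer than 3 keratin UMIs were found in 28 Ehf_KO cells (2.80%) and 115 WT cells (8.26%), at the lower WT depth. The basal keratins moved less with the ranking than the contractile genes, which the ranking itself makes high. Where each contractile gene was measured in cells ranked by the other 7, its ratio ran from 0.91 for Myl9 to 1.25 for Tpm2 in Ehf_KO. In WT it ran from 0.69 for Myh11 to 1.10 for Actg2. The other 7 are contractile genes too, and Acta2, Myh11 and Mylk also made cells eligible. These ratios are thus a description and no independent check. Krt14 had 2284 CPM in contractile-high and 1751 in other basal cells of the Ehf_KO library, and 1941 and 1518 in those of the WT library, a log2 ratio of 0.43 in Ehf_KO and 0.36 in WT. Krt5 and Krt17 had ratios of 0.44 and 0.27 in Ehf_KO and of 0.27 and 0.33 in WT, so none of the 3 reached 1.5-fold. Trp63, the basal lineage transcription factor, stood at 149 CPM in contractile-high and 118 in other basal cells of the Ehf_KO library, and 134 and 139 in those of the WT library. Krt15, a keratin of basal cells that the rule did not use, had 566 CPM in contractile-high and 187 in other basal cells of the Ehf_KO library, and 568 and 375 in those of the WT library. Its log2 ratio was 1.64 (1.56 to 1.73) in Ehf_KO and 0.60 (0.52 to 0.68) in WT. These intervals cover counting error in 1 library each and say nothing of spread between animals. Among the luminal keratins used by the rule, Krt8 stood at 1301 CPM in contractile-high and 834 in other basal cells of the Ehf_KO library, and 1464 and 1206 in those of the WT library, so members carried some Krt8 in both libraries. The median of all 6 luminal rule genes together was 5 UMIs per contractile-high cell in Ehf_KO and 3 in WT, against 3 and 2 per other basal cell. Krt8 does not stand for all 6, whose median log2 ratio was -0.045 in Ehf_KO and -0.24 in WT. The rule asked only for fewer luminal than basal UMIs, so these levels describe the cells and are no check of them.

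**Figure D2:**
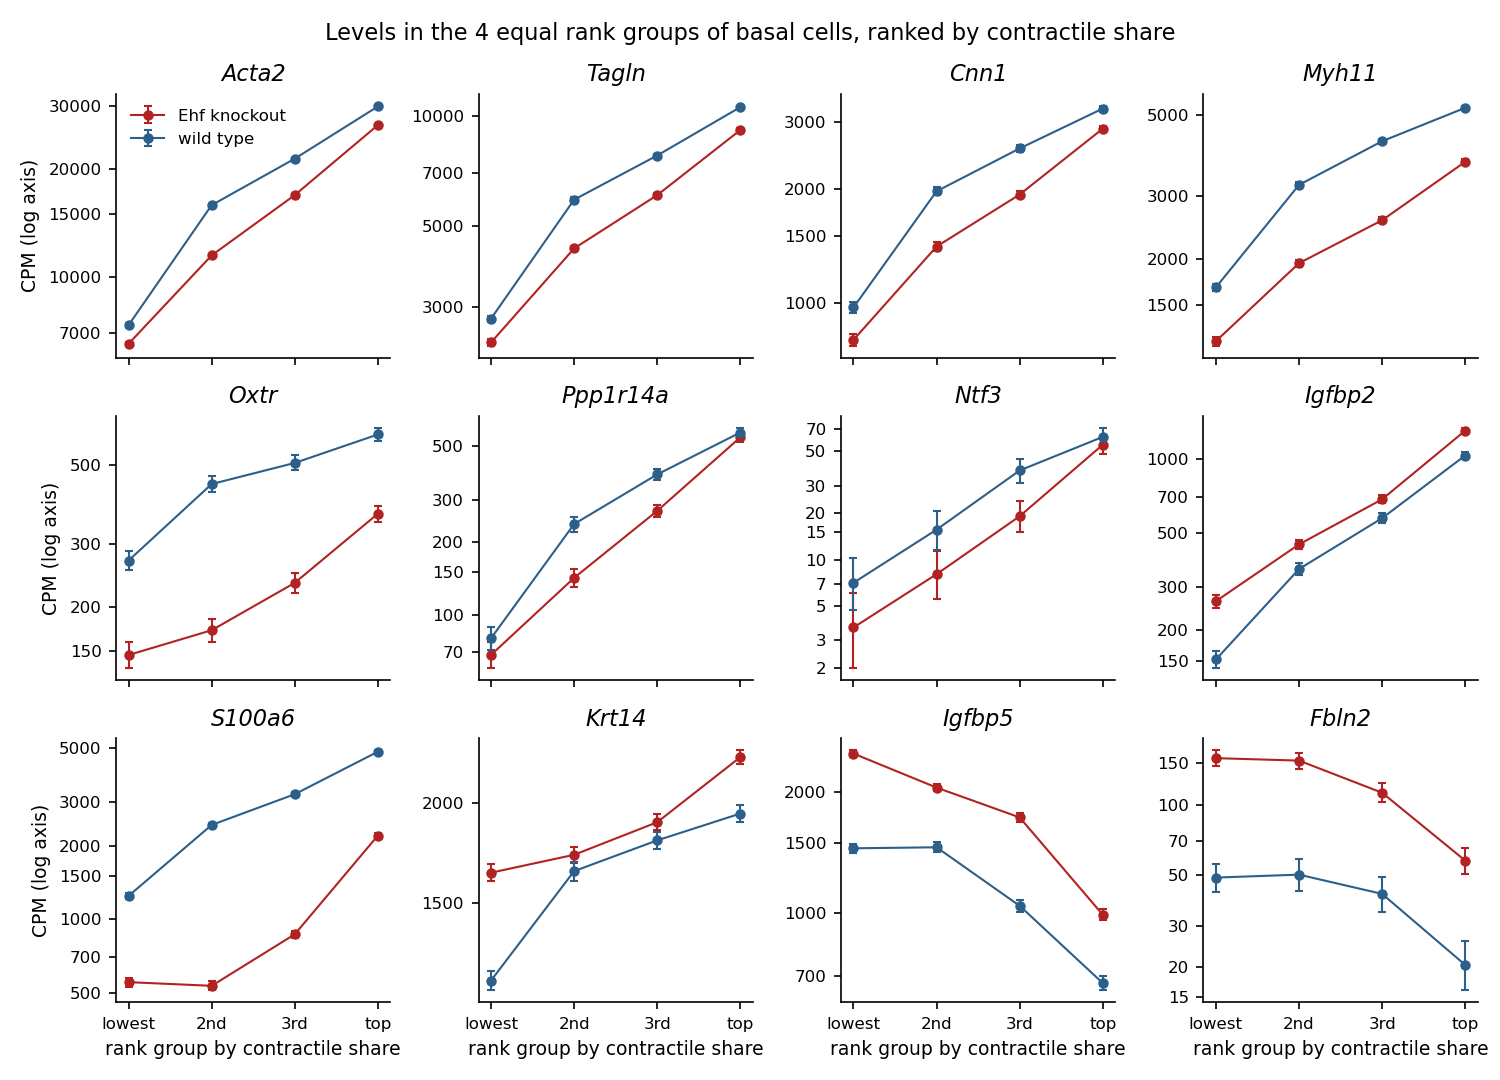
Summed level in CPM (vertical log axis, one scale per panel) of 12 genes over the 4 rank groups of basal cells, from the lowest to the top by contractile share (horizontal axis), with Ehf_KO and WT as separate lines; bars are exact Poisson 95% intervals of counting error and do not show spread between animals. Acta2 ran from 6529 CPM in the lowest to 26519 CPM in the top rank group of Ehf_KO cells and from 7359 to 29886 CPM in WT, while Krt14 ran from 1636 to 2284 CPM and from 1199 to 1941 CPM.

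Outside the ranking score, 267 of 9988 tested genes (2.67%) were at least 1.5-fold higher in contractile-high than in other basal cells in both libraries, and 236 (2.36%) were at least 1.5-fold lower in both. Within single libraries 6.17% of 10446 genes were higher and 6.47% lower in Ehf_KO, and 5.15% of 10262 genes were higher and 8.01% lower in WT. Opposite directions at this size were rare, with 9 genes higher in Ehf_KO and lower in WT (0.0901%) and 5 genes the other way (0.0501%). Among these 5, looked up after their values were seen, were Ppm1f, Rtel1, Tmem38a and Utp25. Calls in this comparison asked for the size only and not for an interval that excluded 0, so nothing is read from these 9 and 5 genes. The ratios of both libraries rest on separate cells, but the same 8 genes ranked both, and nothing is read from the overlap. The median log2 ratio of all genes tested was 0.0056 in Ehf_KO and 0.0055 in WT.

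Other parts of the smooth muscle apparatus followed the ranking genes. Of 22 tested genes of 26 on a list of smooth muscle filament and contraction regulators, 12 were higher in both libraries and 0 lower in either, with a median log2 ratio of 0.71 in Ehf_KO and 0.62 in WT. Over all tested genes 2.67% were higher and 2.36% lower in both. Ppp1r14a, the inhibitor of myosin phosphatase known as CPI-17, had 543 CPM in contractile-high and 159.8 in other basal cells of the Ehf_KO library, and 569 and 221 in those of the WT library, with log2 ratios of 1.81 in Ehf_KO and 1.37 in WT. Cald1, which encodes the actin and myosin binding protein caldesmon, had 2726 CPM in contractile-high and 1307 in other basal cells of the Ehf_KO library, and 3108 and 1723 in those of the WT library, ratios of 1.11 in Ehf_KO and 0.86 in WT. Synpo2, an actin-bundling protein, had ratios of 1.38 in Ehf_KO and 0.80 in WT. Tpm1 stood at 3385 CPM in contractile-high and 2081 in other basal cells of the Ehf_KO library, and 3994 and 2420.0 in those of the WT library. The genes with a CArG box shown above moved less than Ppp1r14a. Myl6 had 381 CPM in contractile-high and 247 in other basal cells of the Ehf_KO library, and 415 and 271 in those of the WT library, and Fhl2 had 87.1 CPM in contractile-high and 57.0 in other basal cells of the Ehf_KO library, and 96.0 and 51.4 in those of the WT library. Jph2, junctophilin, which tethers calcium stores to the plasma membrane, had ratios of 1.00 in Ehf_KO and 1.17 in WT. The thin filament genes Smtn and Lmod1 passed 1.5-fold in Ehf_KO only, at 0.75 and 0.75, against 0.43 and 0.53 in WT. Des, the muscle intermediate filament gene, had only 6 UMIs in Ehf_KO and 7 in WT contractile-high cells, and Myocd, the smooth muscle SRF cofactor, had 2 and 0.

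Genes of the actin cytoskeleton and its adhesion sites showed a smaller shift. Of 24 listed genes, all tested, 9 were higher in both libraries and 0 lower in both, at a median log2 ratio of 0.61 in Ehf_KO and 0.52 in WT. The shares over all tested genes were 2.67% higher and 2.36% lower. Vcl had 529 CPM in contractile-high and 284 in other basal cells of the Ehf_KO library, and 579 and 343 in those of the WT library. Ilk, the integrin-linked kinase, and Tns1, tensin, had ratios of 0.76 in Ehf_KO and 0.59 in WT and of 1.07 in Ehf_KO and 0.66 in WT. The ratio was highest for Lims2, a partner of that kinase, at 1.93 in Ehf_KO and 1.42 in WT, on few UMIs (48 and 81). Myh9, the non-muscle myosin heavy chain, went the other way, with 169 CPM in contractile-high and 261 in other basal cells of the Ehf_KO library, and 138 and 186 in those of the WT library. Its log2 ratio was -0.58 in Ehf_KO and -0.43 in WT, short of 1.5-fold in both. Among SRF, its cofactors and YAP target genes, 0 of 12 tested were past 1.5-fold in both libraries. Amotl2, Ccn1, Ccn2 and Tead1 were that much higher than in other basal cells within the Ehf_KO library only. Mrtfa, a cofactor of SRF, was so within the WT library only. Within single libraries 6.17% of all tested genes were higher in Ehf_KO and 5.15% in WT. Srf stood at 103 CPM in contractile-high and 76.5 in other basal cells of the Ehf_KO library, and 104 and 88.8 in those of the WT library. The matrix protein genes Ccn1 and Ccn2 had ratios of 0.92 in Ehf_KO and 0.39 in WT and of 0.90 in Ehf_KO and 0.41 in WT.

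The oxytocin receptor gene Oxtr (chr6:112473683-112489943, minus strand), which the rule did not use, was higher in contractile-high cells of both libraries. Its level was 146, 172, 233 and 365 CPM from the lowest to the top rank group in Ehf_KO and 269.8, 443, 507 and 610.0 CPM in WT. Both libraries thus went up at each step, and luminal cells held 19.4 CPM in Ehf_KO and 11.3 CPM in WT. The log2 ratio of contractile-high over other basal cells was 1.04 (0.94 to 1.13) in Ehf_KO and 0.63 (0.55 to 0.71) in WT. An Oxtr UMI was found in 680 Ehf_KO (67.9%) and 971 WT (69.8%) contractile-high cells at their own depths. Thinned to 1000 UMIs per cell, with 0 cells left out, the share was 30.0% (27.1 to 32.9) in Ehf_KO and 43.2% (40.6 to 45.9) in WT contractile-high cells. The other basal cells reached 15.4% in Ehf_KO and 33.1% in WT. Luminal cells, which are not expected to carry the gene, gave a background of 2.18% (1.34 to 3.34) in Ehf_KO and 1.24% (0.838 to 1.77) in WT after thinning, and of 18.8% and 10.0% before it, at median depths of 9462.5 and 9043.5 UMIs.

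**Figure D3:**
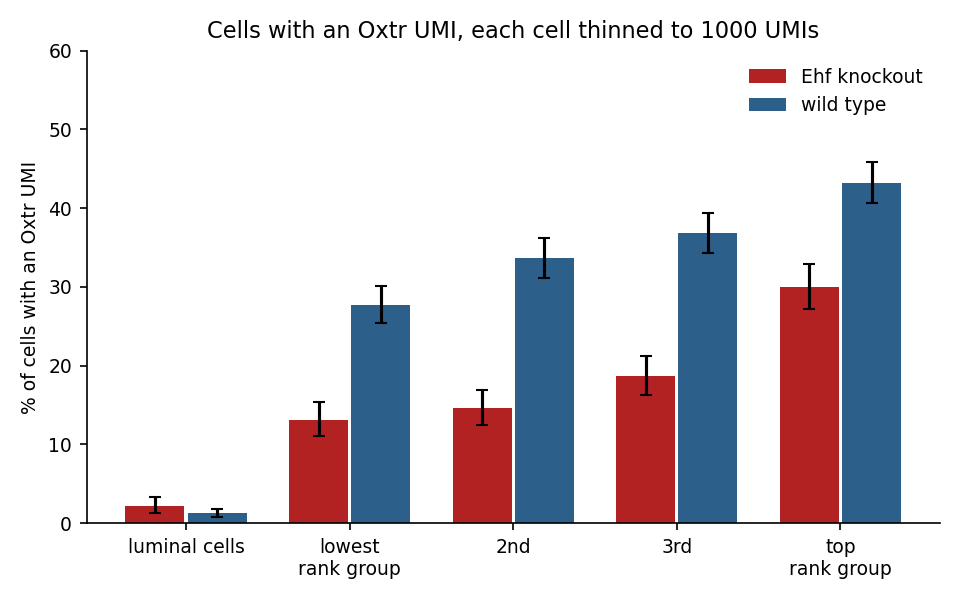
Percent of cells with at least 1 Oxtr UMI after thinning each cell to 1000 UMIs (vertical axis) in luminal cells and in basal cells from the lowest to the top rank group by contractile share (horizontal axis), Ehf_KO bars left of WT bars; error bars are exact Clopper-Pearson 95% intervals of counting error. The share was 13.1% in the lowest and 30.0% in the top rank group of Ehf_KO, 27.7% and 43.2% in WT, and 2.18% and 1.24% in luminal cells.

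Of 30 tested genes for oxytocin signalling, calcium handling and tone, Oxtr included, 8 were higher in both libraries and 1 was lower, with a median log2 ratio of 0.27 in Ehf_KO and 0.30 in WT. Over all tested genes 2.67% were higher and 2.36% lower, and nothing is read from the 1 lower gene. The higher genes besides Oxtr were Cav1, Cavin1, Atp2b4, Cacna1c, Kcnma1, Ednra and Pde5a. Cav1, the main protein of the membrane pits called caveolae, had 645 CPM in contractile-high and 242 in other basal cells of the Ehf_KO library, and 843 and 421 in those of the WT library, with ratios of 1.46 in Ehf_KO and 1.01 in WT. Its partner Cavin1 stood at 0.92 in Ehf_KO and 0.64 in WT. Atp2b4, a calcium pump of the plasma membrane, stood at 34.5 CPM in Ehf_KO and 50.2 CPM in WT members, and Cacna1c, the pore of the L-type calcium channel, had ratios of 1.10 in Ehf_KO and 0.97 in WT. Kcnma1, the large-conductance calcium-activated potassium channel, had ratios of 0.87 in Ehf_KO and 0.86 in WT. The lower gene was Itpr2, a calcium release channel, at -0.79 in Ehf_KO and -1.45 in WT on 37 and 19 UMIs.

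Among the named genes outside these lists, Ntf3, the growth factor neurotrophin 3, ranked first by the lower of its 2 ratios among genes with at least 50 CPM. It had 55.3 CPM in contractile-high and 10.2 in other basal cells of the Ehf_KO library, and 62.1 and 19.1 in those of the WT library, log2 ratios of 2.48 (2.16 to 2.81) in Ehf_KO and 1.70 (1.42 to 1.99) in WT. The muscle kinase gene Dmpk had 54.3 CPM in contractile-high and 13.3 in other basal cells of the Ehf_KO library, and 75.5 and 26.6 in those of the WT library. Igfbp2, which binds insulin-like growth factors, had 1300.1 CPM in contractile-high and 465 in other basal cells of the Ehf_KO library, and 1030.1 and 344 in those of the WT library, ratios of 1.53 in Ehf_KO and 1.59 in WT. The calcium-binding protein genes S100a6 and S100a4 had ratios of 1.80 in Ehf_KO and 1.13 in WT and of 1.94 in Ehf_KO and 1.08 in WT. Ckb, brain-type creatine kinase, and Synm, the intermediate filament protein synemin, had ratios of 1.41 in Ehf_KO and 1.27 in WT and of 1.40 in Ehf_KO and 1.04 in WT. The remaining named genes Sh3bgr, Pnck, Fbxl22 and Prss23 lay between 1.17 and 1.62 in Ehf_KO and between 1.02 and 1.16 in WT.

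Single secreted and adhesion genes went in either direction. Of all tested genes 2.67% were higher and 2.36% lower in both libraries. The median log2 ratio was 0.22 in Ehf_KO and 0.14 in WT for the growth factor list and 0.32 and 0.34 for the matrix list. It was 0.36 in Ehf_KO and 0.30 in WT for the integrin list and 0.048 and -0.045 for the Wnt list. Igfbp5, another binding protein for insulin-like growth factors, had 992 CPM in contractile-high and 2094 in other basal cells of the Ehf_KO library, and 670.4 and 1328 in those of the WT library, a log2 ratio of -1.03 in Ehf_KO and -0.98 in WT. It thus ran against Igfbp2, and Igfbp6 had ratios of 1.95 in Ehf_KO and 0.81 in WT. Of 20 tested growth factor and insulin-like growth factor genes 2 were higher and 2 lower in both libraries, the lower ones Igfbp5 and Areg. Of 22 tested basement membrane and matrix genes 1 was higher, Postn, which encodes periostin, with 1069.9 CPM in contractile-high and 501 in other basal cells of the Ehf_KO library, and 1363 and 712 in those of the WT library. The 3 lower ones were Mmp2, a gelatinase, with 25.4 CPM in contractile-high and 68.4 in other basal cells of the Ehf_KO library, and 25.9 and 64.4 in those of the WT library, Fbln2, fibulin 2, with ratios of -1.25 in Ehf_KO and -1.18 in WT, and Lama5, a laminin chain, with -0.88 in Ehf_KO and -0.75 in WT. Of 15 tested integrin and hemidesmosome genes the collagen receptor chain Itga1, the fibronectin receptor chain Itga5 and Itgb6 were higher and 0 were lower. Itga6, the laminin receptor chain used to sort basal cells, stood at 0.16 in Ehf_KO and 0.16 in WT. Of 13 tested Wnt pathway genes Wnt6 was higher, at 0.89 in Ehf_KO and 0.91 in WT, and Rspo1 was lower, at -1.19 in Ehf_KO and -0.81 in WT. Of 18 tested basal lineage factors 0 passed in both libraries in either direction. Of 10 tested basal keratin and junction genes Krt15 and Perp were higher and 0 lower. Of 11 tested genes linked to basal progenitors 0 were higher and 2 lower, Notch1 at -1.10 in Ehf_KO and -0.83 in WT and Ly6d at -0.91 in Ehf_KO and -1.31 in WT.

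**Figure D4:**
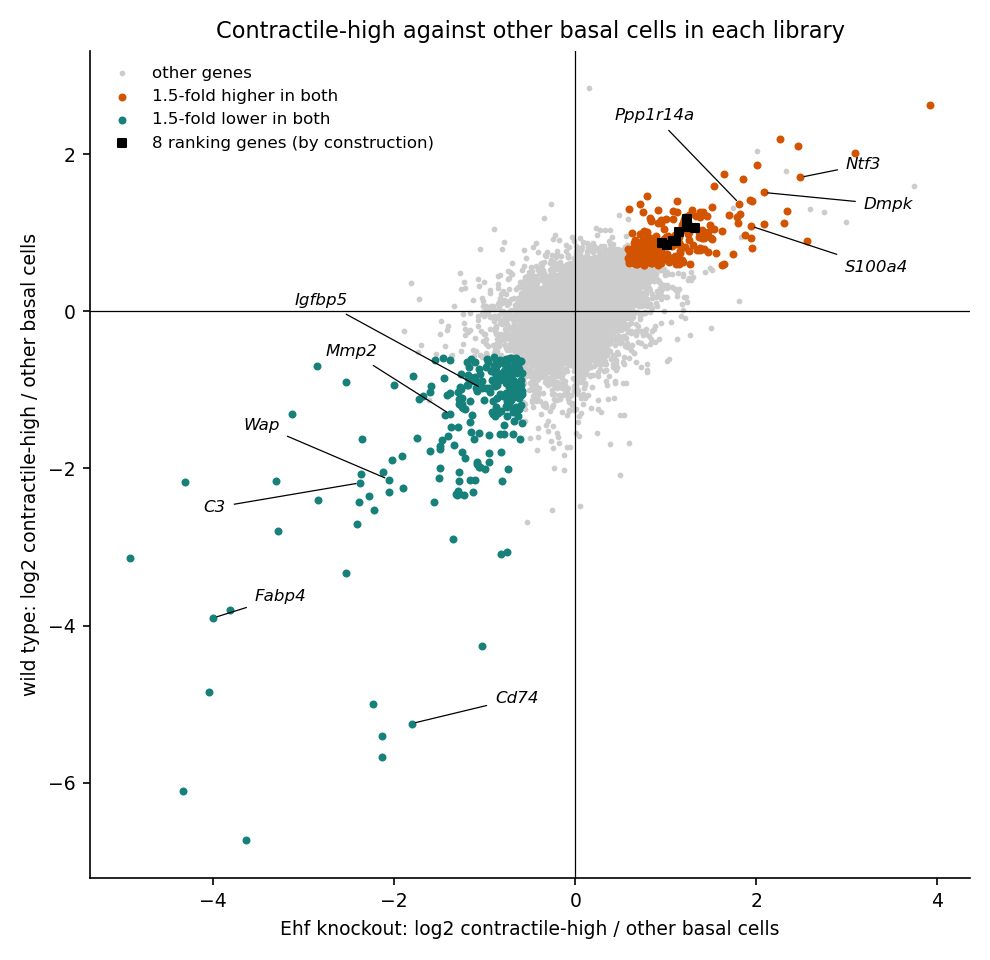
Log2 ratio of contractile-high over other basal cells for each tested gene in Ehf_KO (horizontal axis) and in WT (vertical axis), each library scaled to a median of 0. Genes at 0 UMIs in a cell set have no ratio and are not drawn. Orange and teal points are the drawn genes among the 267 at least 1.5-fold higher and the 236 at least 1.5-fold lower in both libraries. Grey points are other genes and black squares the 8 ranking genes, which are high by construction.

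Milk protein, fat and immune genes were among the genes furthest below in contractile-high cells, and they were concentrated in the lowest rank group. Of 12 milk protein genes 11 were lower in both libraries, against 2.36% of all tested genes, with a median log2 ratio of -1.32 in Ehf_KO and -2.21 in WT. The whey protein gene Wap had 642, 16.1, 34.8 and 52.3 CPM from the lowest to the top rank group in Ehf_KO, and 11080.3, 1547, 1493 and 1187 CPM in WT, so the lowest rank group held most of it. In 1 alternative added after seeing the data, some cells were left out of both sets. These carried at least 3 immune or endothelial UMIs or over 5% milk protein UMIs. Milk genes, and immune genes such as Cd74, thus chose these cells, so the change of their ratios was largely fixed in advance. The median of the milk list was then 0.23 in Ehf_KO and 0.076 in WT. The Wap ratio was then 0.84 in Ehf_KO and 0.17 in WT. The fatty acid carrier gene Fabp4, abundant in fat and capillary cells, had 9.87 CPM in contractile-high and 164 in other basal cells of the Ehf_KO library, and 10.1 and 152 in those of the WT library. In Ehf_KO 15 of its 40 contractile-high UMIs lay in 1 cell, and without the cells left out above its ratio was 0.77 in Ehf_KO and -1.91 in WT. Cd74, an antigen presentation gene of immune cells, had 16.8 CPM in contractile-high and 60.8 in other basal cells of the Ehf_KO library, and 3.27 and 124 in those of the WT library. Without those cells it stood at -1.34 and -2.31. The named genes C3, a complement component, Mmp2, Igfbp5 and Wfdc12 kept their direction and were past 1.5-fold without those cells too, at -2.40, -1.39, -1.06 and -3.89 in Ehf_KO and at -1.98, -1.50, -1.09 and -3.74 in WT.

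Markers of endothelial and immune cells were lower in contractile-high than in other basal cells, and fibroblast markers were higher. The summed level of 15 pericyte and vascular smooth muscle markers was 82.7 CPM in contractile-high and 84.9 CPM in other basal cells of Ehf_KO, and 74.6 and 87.6 CPM in WT. Most of it was Steap4, while the defining marker Rgs5 had 4 and 2 UMIs and Kcnj8, Higd1b and Ebf2 had 0 in both libraries. Thus 4 of the 15 markers were at 0 in Ehf_KO and 6 in WT. At least 3 UMIs of this list were found in 13 Ehf_KO (1.30%) and 1 WT (0.0718%) contractile-high cells. Endothelial markers summed to 4.19 CPM in contractile-high and 29.9 CPM in other basal cells of Ehf_KO, and to 3.57 and 18.9 CPM in WT, with Cdh5 and Emcn at 0. Immune markers summed to 21.0 and 84.3 CPM in Ehf_KO and to 5.05 and 233 CPM in WT, with Ptprc at 0 and 1 UMI. Fibroblast markers summed to 851 against 507 CPM in Ehf_KO and 936 against 695 CPM in WT. Dcn, decorin, and Fbn1, fibrillin 1, made up most of that sum, and Dcn alone had ratios of 0.87 in Ehf_KO and 0.72 in WT. At least 3 UMIs of this list of 10 genes were found in 59.4% of Ehf_KO and 36.8% of WT contractile-high cells, in 28.5% and 19.0% of other basal cells and in 1.42% and 0.455% of luminal cells, at unequal depths. The collagen gene Col3a1 had 191 UMIs in Ehf_KO and 221 in WT contractile-high cells, with ratios over other basal cells of 1.19 in Ehf_KO and 0.019 in WT. Col5a2 had 82 and 128 UMIs, and Col1a2 had 25 and 24, with ratios of -1.35 in Ehf_KO and -2.89 in WT. The other fibroblast genes had few UMIs, Col1a1 4 and 1, Lum 3 and 1, Pdgfra and Dpt 1 in each library, and Col6a3 0 and 1. The part of fibroblast RNA in the contractile-high profile was not tested.

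Between genotypes, 392 of 8563 tested genes (4.58%) were at least 1.5-fold higher in Ehf_KO than in WT contractile-high cells with a counting interval that excluded 0, and 390 (4.55%) were at least 1.5-fold lower. In the other basal cells the shares were 5.54% and 7.63% of 11255 genes. Of the genes tested in both cell sets, 199 higher calls were shared, 50.8% of those in contractile-high and 49.9% of those in other basal cells, and 194 lower calls, 49.7% and 40.8%. These counts compare 2 libraries and carry no measure of the spread between animals.

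None of the 8 ranking genes differed by 1.5-fold between genotypes among contractile-high cells, and all 8 were lower in Ehf_KO. The log2 ratio of Ehf_KO over WT ran from -0.51 (-0.55 to -0.48) for Myh11 to -0.15 (-0.21 to -0.087) for Actg2, with a median of -0.21, and the median was -0.39 in the other basal cells. The same genes chose the members at a higher cut in WT, so these values depend on the cut. Where each gene was measured in cells ranked by the other 7, the ratios ran from -0.48 for Myh11 to -0.12 for Actg2 with a median of -0.18. Above 1 common share of 4.90%, which 694 Ehf_KO and 1975 WT cells reached, they ran from -0.36 for Myh11 to 0.08 for Actg2 with a median of -0.018, and Acta2 (0.03), Tpm2 (0.05) and Actg2 lay above 0. With the cut of each library, all 22 tested smooth muscle filament genes outside the score were below 0 in contractile-high cells. Their median was -0.23, against -0.35 in the other basal cells, and 0 of them passed 1.5-fold. This list was not measured above the common share, so how far its values depend on the higher WT cut was not tested. In contractile-high cells Oxtr stood at 365 CPM in Ehf_KO and 610.0 CPM in WT members, a log2 ratio of -0.76 (-0.86 to -0.66). In the other basal cells the ratio was -1.16, and above the common share it was -0.59.

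Ccl2, Ccl7, Cxcl1, Ptx3, Rela and Ets1 were among the genes named for the highest ratios of Ehf_KO over WT in contractile-high cells. Ccl2, a chemokine that attracts monocytes, stood at 268 CPM in Ehf_KO and 74.3 CPM in WT members, a log2 ratio of 1.83 (1.63 to 2.04), against 1.15 in the other basal cells. Along the ranking its level in Ehf_KO was 239, 256, 274 and 268 CPM from the lowest to the top, whereas in WT it was 99.6, 131, 107 and 74.3 CPM, lowest in the contractile-high cells. At 1000 UMIs per cell a Ccl2 UMI was found in 16.2% of Ehf_KO and 5.75% of WT contractile-high cells, against 0.545% and 0.372% of luminal cells. The related chemokine gene Ccl7 stood at 136 CPM in Ehf_KO and 49.1 CPM in WT members (log2 ratio 1.45, 1.20 to 1.71), and the neutrophil chemokine gene Cxcl1 at 322 CPM in Ehf_KO and 134 CPM in WT members (1.24, 1.09 to 1.40). Ptx3, a secreted pentraxin of innate immunity, had 50.1 CPM in Ehf_KO and 16.9 CPM in WT members, a ratio of 1.54 (1.11 to 2.00). The ratios in the other basal cells were 0.60, 0.94 and 0.66 for Ccl7, Cxcl1 and Ptx3, lower in each case. Rela, a subunit of NF-kB, had 91.3 CPM in Ehf_KO and 44.0 CPM in WT members and a ratio of 1.03 (0.76 to 1.32), and Ets1, an ETS factor like Ehf, had 53.3 CPM in Ehf_KO and 24.4 CPM in WT members and a ratio of 1.11 (0.74 to 1.49). Above the common share Ccl2, Ptx3, Cxcl1 and Ccl7 stood at 1.61, 1.38, 1.23 and 1.12. Whether handling of the tissue differed between the libraries was not tested. Of 19 immediate early and heat shock genes that respond to dissociation 0 were higher and 2 lower in Ehf_KO, Fos at -0.59 and Fosb at -0.60. The list's median was 0.0065. Over all tested genes 4.58% were higher and 4.55% lower, and nothing is read from counts this small.

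**Figure D5:**
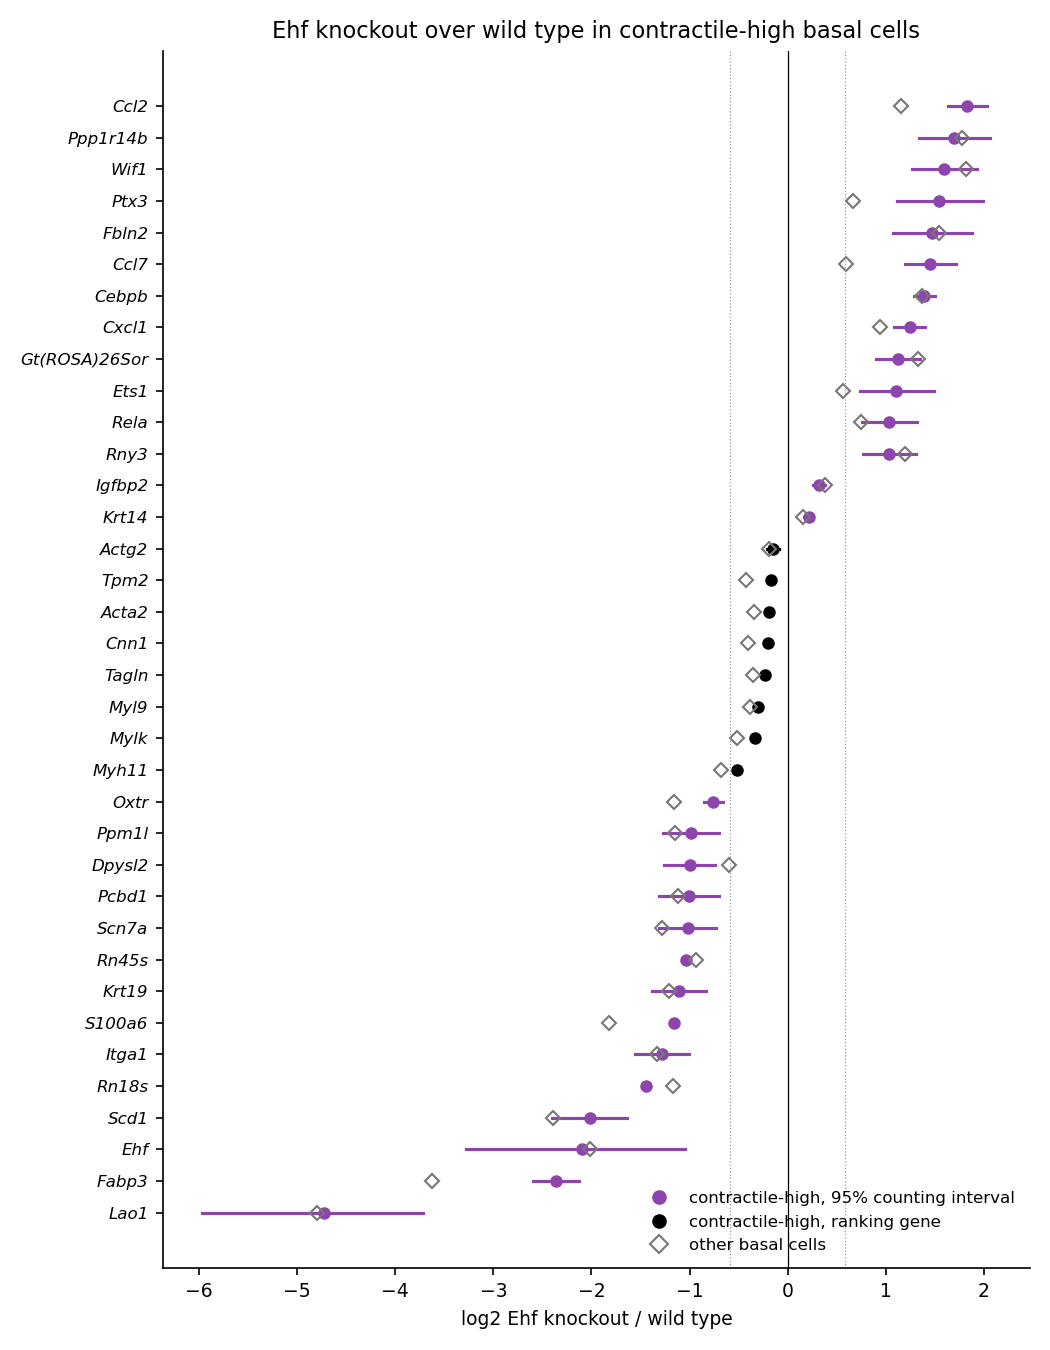
Log2 ratio of Ehf_KO over WT (horizontal axis, median of all genes at 0) for named genes down the vertical axis, as filled circles for contractile-high cells (black for ranking genes), with exact conditional 95% intervals of counting error, and as open diamonds for other basal cells; dotted lines mark 1.5-fold. Ccl2 stands at 1.83 in contractile-high and 1.15 in other basal cells, and Oxtr at -0.76 and -1.16.

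Other genes named as higher in Ehf_KO are given with their ratios in contractile-high and then in other basal cells. Ppp1r14b, an inhibitor of protein phosphatase 1, stood at 1.69 and 1.78, the secreted Wnt inhibitor gene Wif1 at 1.59 and 1.82, Fbln2 at 1.47 and 1.55 and the transcription factor gene Cebpb at 1.39 and 1.37. Gt(ROSA)26Sor and Rny3, which do not encode proteins, stood at 1.12 and 1.33 and at 1.03 and 1.19. Pappa, a protease that cleaves binding proteins of insulin-like growth factors, stood at 0.80 (0.44 to 1.16) in contractile-high and 1.79 in other basal cells. The log2 ratio of contractile-high over other basal cells was -0.61 in Ehf_KO and 0.37 in WT for this gene. Of 17 tested basal lineage factors 3 were higher, Cebpb, Klf5 at 0.80 and Id4 at 0.87, and 0 were lower. The median of that list was -0.089, with 5 genes above and 12 below 0. Over all tested genes 4.58% were higher and 4.55% lower.

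Named as lower in Ehf_KO contractile-high cells, outside the milk protein genes, were S100a6, Itga1, Pcbd1, Ppm1l, Dpysl2 and Scn7a, among others. S100a6 had 2196 CPM in Ehf_KO and 4829.6 CPM in WT members, a log2 ratio of -1.16 (-1.19 to -1.12), and its ratio was -1.82 in the other basal cells. The common share brought it to -0.83. Itga1 had 41.2 CPM in Ehf_KO and 98.7 CPM in WT members, a ratio of -1.28 (-1.56 to -1.01). Pcbd1, a cofactor of the transcription factor HNF1, Ppm1l, a protein phosphatase, Dpysl2, a regulator of microtubules, and Scn7a, a sodium channel protein, were at least 1.5-fold lower as well. Pcbd1 had 35.3 CPM in Ehf_KO and 69.9 CPM in WT members, Dpysl2 50.3 CPM in Ehf_KO and 99.3 CPM in WT members, and Ppm1l and Scn7a had ratios of -0.98 and -1.02. Both Pcbd1 and Ppm1l were higher in contractile-high than in other basal cells, with ratios of 1.34 in Ehf_KO and 1.21 in WT and of 1.86 in Ehf_KO and 1.68 in WT, and at the common share they stood at -0.61 and -0.50. Among calcium and oxytocin genes 5 of 28 tested were lower, Oxtr, Ednra (-0.97), Orai1 (-0.85), Kcnma1 (-0.71) and Orai3 (-0.64), and 2 were higher, Cacna1d (0.80) and Stim1 (0.63). Of 24 tested actin and adhesion genes Tagln2 was higher, at 0.88, and Lims2 lower, at -1.04. Of 14 tested integrin genes Itga1, Itgb6 (-0.81) and Itgb4 (-0.74) were lower and 0 were higher. These list counts stand beside 4.58% higher and 4.55% lower over all tested genes.

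Milk genes were lower in Ehf_KO in contractile-high and in other basal cells. Of 11 tested milk protein genes 10 were lower in contractile-high cells, against 4.55% of all tested genes. Their median log2 ratio was -2.52 in contractile-high and -3.48 in other basal cells. Lao1, an amino acid oxidase of milk, had 1.97 CPM in Ehf_KO and 51.7 CPM in WT members, while luminal cells held 112 CPM in Ehf_KO and 1438 CPM in WT. Fabp3, a fatty acid carrier, had 46.4 CPM in Ehf_KO and 235 CPM in WT members, against 1055 and 5648 CPM in luminal cells. The part of free RNA from luminal cells in these values was not tested. Scd1, a fatty acid desaturase, stood at -2.02 and the luminal keratin gene Krt19 at -1.11. The ribosomal RNA genes Rn18s and Rn45s had ratios of -1.44 and -1.04.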

How the data were processed

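Freshly sorted mammary cells of 1 Ehf_KO and 1 WT library were profiled with the 10x Chromium 3' V3 kit, per the labels' protocols. Values in the deposited matrices are UMI counts, whole and not normalized, for 27179 features by barcode. The 1314 features without a symbol held 1.51% of Ehf_KO and 1.37% of WT contractile-high UMIs. The submitters' processing notes name GRCm38 (mm10) and Seurat 4.0.4; for the aligner, none is given in the sources used here. No barcode had fewer than 500 UMIs. Contractile-high cells held 4052711 UMIs in Ehf_KO and 3363810 in WT, and precision is limited by these totals.

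Counts were summed per library and cell set with numpy 2.4.6, scipy 1.17.1 and pandas 2.3.3 in Python 3.11.15. CPM is the sum per 1000000 UMIs of the set, and log2 ratios were shifted so that the median over tested genes was 0. This shift was 0.052 at most in size for contractile-high over other basal cells and for Ehf_KO over WT within each of these sets. It was larger against the lowest rank group. Genes with at least 50 UMIs over the 2 sets were tested for size, the rule's own genes left out of the counts of contractile-high over other basal cells. A gene at 0 UMIs in 1 set was called by its ratio against 3 UMIs in that set. Intervals are exact at 95% (Poisson for sums, conditional for ratios, Clopper-Pearson for shares) and cover counting error only. The ratios, their intervals and the calls were tested on simulated gene totals that held counting error only.

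Doublets were scored with Scrublet in scanpy 1.11.5. It called 122 of 9211 WT cells at a score of 0.379 and 0 of 6561 Ehf_KO cells at 0.621, so it did not work in Ehf_KO, where 38 cells exceeded the WT score. None were removed, and an alternative left them out.

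The members and all gene lists were chosen with earlier results of these data known. Named genes were the 12 highest and 12 lowest ratios past 1.5-fold in both libraries, or between genotypes, with at least 50 CPM in the higher set and 100 UMIs. Left out were predicted, haemoglobin, immunoglobulin, ribosomal protein and mitochondrial genes and, between genotypes, those for milk proteins. Ranking genes, rule keratins, Oxtr, Ehf and up to 6 members of each list were added; a few genes are not reported here. Promoter windows came from RefSeq, and the searched elements were the CArG box and MCAT on both strands.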

Additional observations from a re-analysis of the deposited data

How the results depend on the processing

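The counts of contractile-high over other basal cells (267 higher, 236 lower) changed with the minimum of UMIs per gene and with thinning: 142 and 73 at a minimum of 200 UMIs, 415 and 616 at 10 UMIs and 138 and 94 with cells thinned to 1000 UMIs, where 6717 genes were tested. Against the lowest rank group 536 were higher, and with the top 10% 361 were lower. Without cells carrying UMIs of other cell types, an alternative added after seeing the data, 157 were lower, 126 of them also among the 236. Between genotypes (392 higher, 390 lower) the counts were 141 and 132 at 200 UMIs, 222 and 221 after thinning (5050 genes tested), and 251 and 258 in the top 10% (5793 genes tested). The median of the 8 ranking genes was -0.16 in the top 10%, -0.28 in the top 50%, -0.27 in cells with at least 2000 UMIs and 1000 genes and -0.018 above 1 common share; the cause was not tested. The Oxtr share was 47.3% in Ehf_KO and 67.2% in WT at 2000 UMIs, 67.9% and 69.8% unthinned, 24.2% and 40.4% in the top 50%, and 34.2% in the top 10% of Ehf_KO. The filter for UMIs of other cell types itself used the milk list. Without cells carrying UMIs of other cell types, the ratios that turned above 0 were in Ehf_KO Fabp4 (0.77), Wap (0.84), Glycam1 (1.01), Csn3 (0.31), Csn1s2a (0.38) and Csn1s1 (0.053), with the milk list median at 0.23, and in WT Wap (0.17), Glycam1 (0.12), Csn3 (0.22) and Csn1s2a (0.080), with the median at 0.076. Of 1645 alternative values for single genes and list medians, these 12 turned round, 343 moved beyond their counting interval (medians beyond a fixed band) and 1290 did not; 24 in all lay on the other side of 0, among them Acta2 above the common share. No paired analysis was possible because each genotype was 1 library. With so few UMIs, differences in Des and Myocd were not detectable at this depth.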

Other observations

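Few stress and metabolic genes passed 1.5-fold in both libraries, but only 2.67% of all tested genes were higher and 2.36% lower. Counts this small lie near that share, and nothing is read from them. Of 18 tested genes of the unfolded protein response 0 passed 1.5-fold in both libraries, with a median log2 ratio of contractile-high over other basal cells of -0.0052 in Ehf_KO and -0.18 in WT. Of 16 glycolysis genes 1 was higher in both, Pfkp, the platelet-type phosphofructokinase, at medians of 0.19 and 0.24 for the list. Of 14 tested interferon response and antigen presentation genes 0 passed in both. Of 19 immediate early and heat shock genes 0 passed in both, and Fos stood at 4893 CPM in Ehf_KO and 7258 CPM in WT contractile-high cells. Ribosomal protein transcripts took a median of 10.9% of UMIs in Ehf_KO and 9.07% in WT contractile-high cells, against 13.5% and 10.7% in the other basal cells.

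Between genotypes within contractile-high cells, 2 of 18 unfolded protein response genes were higher in Ehf_KO. These were Asns, asparagine synthetase, and Hyou1, a chaperone of the endoplasmic reticulum, each with 101 UMIs in Ehf_KO and 50 in WT and a log2 ratio of 0.73 (0.22 to 1.25). In the other basal cells their ratios were -0.44 and 0.15. Of 16 tested glycolysis genes 0 passed. Of 6 tested ETS family genes Ets1 was higher and Elf5, the luminal factor, was lower at -1.94, on 15 and 47 UMIs. Of 12 tested Wnt pathway genes Wif1 and Rspo1 (0.80) were higher and Sfrp1 (-0.85) was lower. Of 10 tested basal keratin and junction genes Krt16 (0.65) was higher and Lgals7, galectin 7, was lower at -0.76. Over all tested genes 4.58% were higher and 4.55% lower, and nothing is read from counts this small.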
